A study of Mus musculus with 9 samples.

Results

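The interferon-stimulated and MHC class I genes of C2C12 cells, a mouse myoblast line, are a set of 35 genes chosen by symbol from the pathway, with no threshold on their values, and all 35 were found among the 54307 genes measured. Interferons are secreted proteins that bind receptors on the cell surface. The signal passes through JAK kinases and STAT proteins, joined by IRF9, to a DNA sequence called the interferon-stimulated response element (ISRE), and switches on genes whose products detect, cut, bind or trap viral RNA and proteins. The same signal raises MHC class I, the surface complex that shows peptides from inside the cell to cytotoxic T cells, and cells that meet no virus keep many of these genes at a low resting level.

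RNA of 9 samples was sequenced after enrichment of mRNA, with 3 samples in each group, and each treatment lasted 48 h. The HL group received high glucose (25 mmol/L) together with liraglutide (200 nmol/L), a drug that activates the receptor of the gut hormone GLP-1. The H group received high glucose (25 mmol/L) alone, and the NC group was the untreated control. The glucose concentration of the NC medium is not given in the sources used here, no mannitol control was analysed here, and all groups are of 1 cell line.

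The values are FPKM, read fragments scaled by transcript length and library size, with 1 value per gene and sample. Depth was estimated from low values of genes with 1 annotated transcript of over 1 kb. The most frequent product of FPKM and transcript length was taken as 1 fragment, read from binned values and so only approximate. This gave about 15700000 to 20300000 fragments per library, at which 1 fragment on a transcript of 1 kb was worth 0.0493 to 0.0639 FPKM. Of the 35 genes, 31 reached 1 FPKM in 3 or more libraries and were tested, and Oas1a and Gbp3 passed this filter through NC libraries alone. Replicates varied most in the H group, with a median SD of log2 values over the 31 genes of 0.12 in HL, 0.21 in H and 0.07 in NC. Over all tested genes the order was the same, with medians of 0.087 in HL, 0.171 in H and 0.072 in NC. The study's methods describe independent biological repeats, and the labels do not say how the cultures behind the libraries were kept apart. Of 8 myoblast markers 7 passed the same filter, Myog through HL libraries alone, and the summed level of the 8 was 3071 to 3114 FPKM in HL, 2128 to 2210 FPKM in H and 2542 to 2570 FPKM in NC. Most of this sum was Vim, with means of 2582 FPKM in HL, 1906 in H and 2221 in NC. Myod1, which drives the myogenic program, was called lower in H against NC (log2 fold change -1.29). By adjusted p alone Cdh15, Des and Vim were also lower in H (-0.88, -0.43 and -0.22). Myf5 went the other way and was higher in H without overlap (0.62, limma adjusted p = 0.000495), short of the fold threshold. Myog, Cdh15 and Chrna1 were called higher in HL against H (1.41, 1.27 and 1.13), and Myf5 and Myog were called higher in HL against NC (1.502 and 1.17). The part of these markers in the results was not tested.

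Compared with the NC group, genes of the set differed in both directions in the H group. Several antiviral effector genes fell and 2 genes of the MHC class I pathway rose, as seen in the heat map of all tested genes of the set. A gene was called where its adjusted p was below 0.05 and its log2 fold change exceeded 1 in size. By this rule 7 of the 31 genes were lower in H (22.6%), against 5.75% of all 13674 genes tested. These were Oasl2, Gbp2, Gbp3, Oas1a, Isg15, Parp14 and Bst2. Of the 31 genes, Nlrc5 and Tapbp were called higher (6.45%), against 10.3% of all genes, so calls of higher expression were no more frequent in the set than elsewhere. By adjusted p alone 15 genes were lower and 8 higher, against 33% and 27.1% of all genes, and the libraries of the groups did not overlap for 15 lower and 8 higher genes, against 35.7% and 29.7%. The median log2 fold change of the 31 genes was -0.32 in H against NC, against -0.04 for all genes. A gene that passes the filter through NC alone has to be low elsewhere. For this reason a filter on the mean over all libraries was added after seeing the data. It does not remove this limit, since high NC values can also lift the mean. Gbp3 had means of 0.763 FPKM in HL, 0.806 in H and 2.79 in NC, and Parp14 of 0.797, 0.795 and 1.79, so both were lifted by NC. With a mean FPKM of at least 1, 30 genes of the set were tested and 6 were called lower, the 7 without Oas1a, against 5.78% of all genes, and 2 were called higher, against 8.9%.

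**Figure D1:**
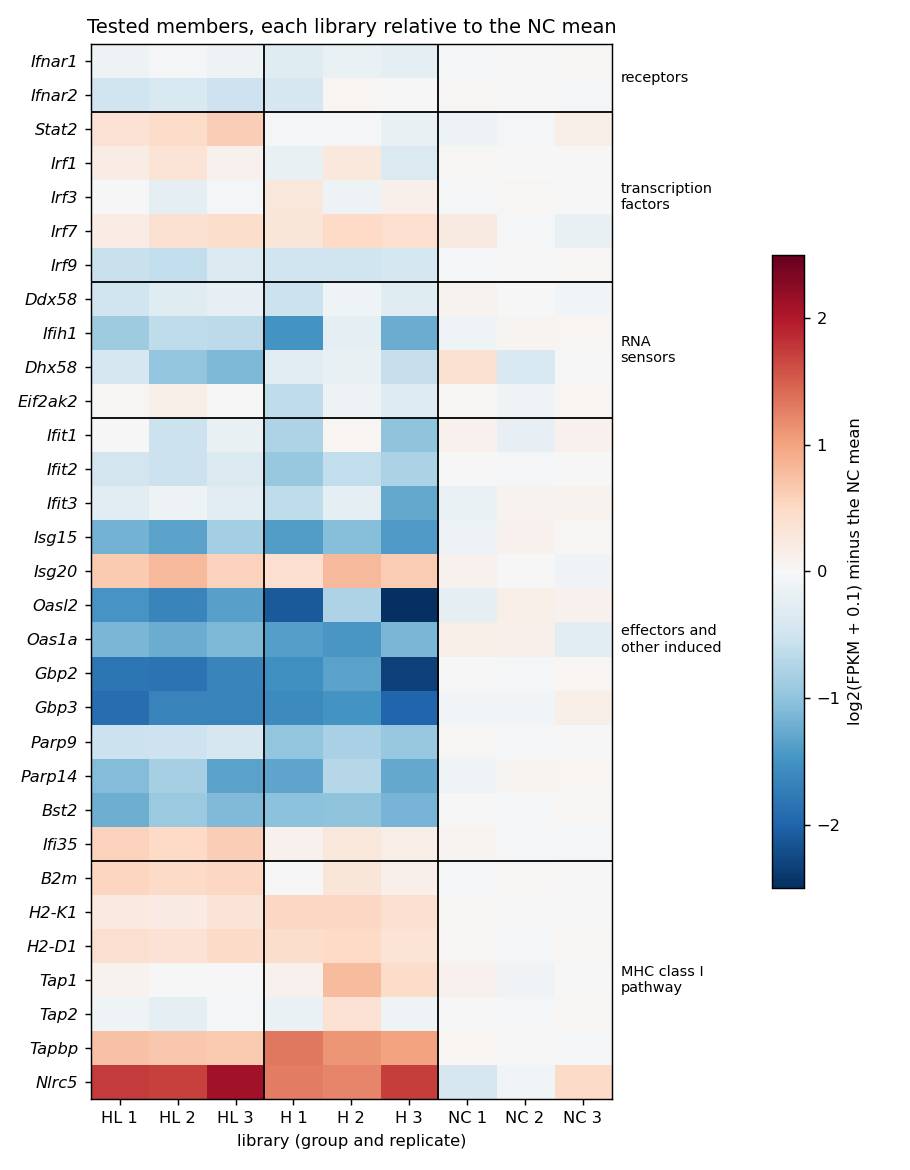
Heat map of the 31 tested genes of the set (rows, grouped by role) in the 9 libraries (columns, HL, H and NC), where color is log2(FPKM + 0.1) minus the NC mean of the gene. Most effector genes are blue in all HL and H libraries, Tapbp and Nlrc5 are red in all of them, and among the treated libraries Oasl2 is palest in H replicate 2.

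When liraglutide was added to high glucose, no gene of the set was called in HL against H by limma, where 3.55% of all genes were called higher and 5.83% lower. At an unadjusted p under 0.05 there were 10 of the 31 genes, against 55.2% of all genes. By adjusted p alone, 6 were higher in HL (Stat2, Eif2ak2, Ifit2, Parp9, Ifi35 and B2m), against 26.7% of all genes, and 3 were lower (Ifnar2, H2-K1 and Tapbp), against 21.7%. The groups did not overlap for 7 higher and 3 lower genes, against 30.4% and 24.9% of all genes. With the filter on the mean there were also no calls, against 3.35% higher and 4.89% lower. The median log2 fold change was 0.05 over the set and 0.04 over all genes. In HL against NC, 7 genes were called lower (22.6%, against 2.41% of all genes), and these were the 7 genes that were lower in H. Nlrc5 was called higher (3.23%, against 6.3%). By adjusted p alone 12 were lower and 8 higher, against 27.2% and 21.6% of all genes, and the groups did not overlap for 15 lower and 9 higher genes, against 36.3% and 29.5%. With the filter on the mean, 6 were lower and 1 higher, against 2.29% and 5.67%. The median log2 fold change was -0.23 over the set and -0.04 over all genes. The H group is shared by the first 2 comparisons and the NC group by 2 of the 3, so these counts are not independent of each other.

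Neither receptor gene was called. Ifnar1, a chain of the type I interferon receptor, was at 23.1, 24.6 and 23.1 FPKM in HL, 20.6, 22.5 and 21.8 FPKM in H, and 24.6, 25.6 and 25.9 FPKM in NC. The H libraries lay below both other groups, by a log2 fold change of -0.23 against NC (limma adjusted p = 0.00765), but after rescaling to TPM the log2 fold change was -0.04 and did not pass the adjusted p. Ifnar2, the other chain, was at 29.0, 31.5 and 28.7 FPKM in HL, 30.7, 42.7 and 41.1 FPKM in H, and 41.8, 40.9 and 40.5 FPKM in NC. Here the HL libraries lay below the NC libraries without overlap, with a log2 fold change of -0.47 (limma adjusted p = 0.00753). H replicate 1 was close to the HL values and the other H libraries were close to NC. Exons of Ifnar2 overlap those of Gm21970 on the same strand in GENCODE M21.

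None of the transcription factors was called in any of the 3 comparisons. Stat2 and Irf9 encode subunits of the factor that binds the ISRE after type I interferon. Stat2 was at 13.5, 14.6 and 16.2 FPKM in HL, 10.4, 10.3 and 9.29 FPKM in H, and 9.61, 10.4 and 11.7 FPKM in NC. All HL libraries were above all others, with log2 fold changes of 0.56 against H and 0.48 against NC (limma adjusted p = 0.00158 and 0.00346). Irf9 was at 4.58, 4.38 and 5.22 FPKM in HL, 4.76, 4.75 and 4.97 FPKM in H, and 6.59, 6.79 and 6.89 FPKM in NC. Both treated groups lay below NC without overlap, with log2 fold changes of -0.48 in H and -0.51 in HL (limma adjusted p = 0.00138 and 0.00147). Exons of Irf9 overlap those of Rnf31 on the same strand in GENCODE M21.

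Irf1, a factor induced by interferon gamma, was at 27.8, 31.3 and 26.4 FPKM in HL, 21.5, 29.4 and 19.2 FPKM in H, and 25.0, 24.5 and 24.3 FPKM in NC. All HL libraries were above NC, H replicate 2 was within the range of HL, and no comparison of Irf1 passed the adjusted p. Irf3, which is activated by the sensors of viral nucleic acid, was at 24.8, 20.9 and 23.8 FPKM in HL, 29.9, 22.5 and 26.9 FPKM in H, and 24.2, 25.1 and 24.3 FPKM in NC, and all groups overlapped. After rescaling to TPM, Irf3 had a log2 fold change of 0.29 in H against NC and passed the adjusted p. Irf7, the factor that amplifies type I interferon production, stayed at 1.37 to 2.26 FPKM in the 9 libraries, with a log2 fold change of 0.41 in H against NC (limma adjusted p = 0.0454).

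None of the 4 RNA sensor genes was called in any of the 3 comparisons. Ifih1 encodes MDA5, a sensor of long double-stranded RNA, and was at 1.42, 1.73 and 1.69 FPKM in HL, 0.902, 2.27 and 1.09 FPKM in H, and 2.53, 2.85 and 2.80 FPKM in NC. All treated libraries were below the NC libraries, and H replicate 2 stood well above the other H libraries. In H against NC the log2 fold change of -0.999 was just short of the fold threshold (limma adjusted p = 0.0136), and it passed at -1.37 without H replicate 2, at -1.05 without NC replicate 1 and at -1.05 with a pseudocount of 0.01. Ddx58, the gene of RIG-I, a sensor of RNA with a 5′ triphosphate, was at 6.59, 7.57 and 8.11 FPKM in HL, 6.37, 8.68 and 7.52 FPKM in H, and 9.90, 9.21 and 8.89 FPKM in NC. Both treated groups lay below NC without overlap, with a log2 fold change of -0.32 in H (limma adjusted p = 0.0492), which after rescaling to TPM was -0.13 and did not pass.

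Dhx58, the gene of the related helicase LGP2, was at 1.59, 1.04 and 0.944 FPKM in HL, 1.77, 1.89 and 1.41 FPKM in H, and 2.87, 1.64 and 2.15 FPKM in NC. HL was below NC without overlap, with a log2 fold change of -0.84 (limma adjusted p = 0.0219), which passed the fold threshold at -1.05 without HL replicate 1 and at -1.03 without NC replicate 2. Eif2ak2, the gene of the kinase PKR, which stops translation when it binds double-stranded RNA, was at 17.9995, 19.6 and 17.4 FPKM in HL, 11.3, 16.2 and 14.1 FPKM in H, and 17.9, 16.7 and 18.4 FPKM in NC. The H libraries lay below both other groups, with log2 fold changes of 0.42 in HL against H and -0.36 in H against NC (limma adjusted p = 0.0182 and 0.0265), while HL and NC overlapped. After rescaling to TPM these values were 0.32 and -0.17 and neither passed the adjusted p.

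The effector genes held all 7 calls of lower expression. Of the 17 effectors and other induced genes of the set, 13 were tested, with a median log2 fold change of -1.06 in H against NC and -1.08 in HL against NC. Isg15 encodes a ubiquitin-like protein that is attached to other proteins during the antiviral response. It was at 6.44, 5.81 and 8.17 FPKM in HL, 5.52, 7.05 and 5.46 FPKM in H, and 13.4, 15.96 and 15.0 FPKM in NC. Every treated library was below every NC library and the HL and H libraries overlapped. The log2 fold change was -1.29 in H against NC (standard error 0.15, limma adjusted p = 5.82e-05) and -1.12 in HL against NC (standard error 0.15, limma adjusted p = 0.000291), with 0.17 between HL and H (limma adjusted p = 0.356).

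Bst2 encodes tetherin, a membrane protein that holds budding virus particles on the cell. It was at 8.88, 10.9 and 9.55 FPKM in HL, 10.2, 10.3 and 9.27 FPKM in H, and 20.9, 20.0 and 21.3 FPKM in NC. The treated libraries were all at about the same level and none reached the NC libraries, with log2 fold changes of -1.06 in H and -1.08 in HL against NC (standard error 0.09 each, limma adjusted p = 7.65e-06 and 2.4e-05). The fold threshold was missed in H at a pseudocount of 1 (-0.998) and after rescaling to TPM (-0.87), and in HL after rescaling to TPM (-0.99).

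The oligoadenylate synthetase genes were low throughout. Oasl2, which encodes a synthetase-like protein, was at 1.35, 1.18 and 1.47 FPKM in HL, 0.849, 2.27 and 0.619 FPKM in H, and 3.32, 4.36 and 4.24 FPKM in NC. H replicate 2 was above all HL libraries and the other H libraries were below them, and Oasl2 had the largest SD of log2 values of the set within H (0.90). The log2 fold change was -1.79 in H against NC (standard error 0.38, limma adjusted p = 0.00273) and -1.50 in HL against NC (standard error 0.38, limma adjusted p = 0.00953). Without H replicate 2 it was -2.29 in H against NC, and the difference between HL and H, 0.29 with all libraries (limma adjusted p = 0.556), was 0.79 (limma adjusted p = 0.0113, range over the alternatives 0.0113 to 0.889). Oas1a, whose product makes the second messenger that activates RNase L, was at 0.626, 0.577 and 0.640 FPKM in HL, 0.518, 0.484 and 0.621 FPKM in H, and 1.67, 1.64 and 1.23 FPKM in NC. All treated libraries were below 1 FPKM and all NC libraries above, with log2 fold changes of -1.33 in H and -1.17 in HL against NC (limma adjusted p = 0.000745 and 0.00242), which at a pseudocount of 1 were -0.70 and -0.64.

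Guanylate-binding proteins are large GTPases that attack the membranes around microbes inside the cell, and both of the set fell in H and in HL against NC. Gbp2 was at 1.23, 1.18 and 1.38 FPKM in HL, 1.49, 1.74 and 0.815 FPKM in H, and 4.48, 4.43 and 4.66 FPKM in NC. Gbp3 was at 0.667, 0.809 and 0.812 FPKM in HL, 0.858, 0.929 and 0.632 FPKM in H, and 2.64, 2.65 and 3.09 FPKM in NC. For both genes the NC libraries were well apart from all others, and HL and H overlapped. The log2 fold changes of Gbp2 were -1.74 in H and -1.76 in HL against NC (limma adjusted p = 0.000203 and 0.000351), and those of Gbp3 were -1.69 and -1.75 (limma adjusted p = 7.3e-05 and 0.000134).

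Parp9 and Parp14 encode proteins of the ADP-ribosyltransferase family, and all NC libraries of both were above the treated libraries. Parp14 was at 0.786, 0.958 and 0.648 FPKM in HL, 0.660, 1.05 and 0.676 FPKM in H, and 1.64, 1.87 and 1.86 FPKM in NC. Its log2 fold change was -1.10 in H and -1.09 in HL against NC (standard error 0.24 each, limma adjusted p = 0.00293 and 0.00457), and the fold threshold was missed without H replicate 1 (-0.998) in H and without HL replicate 3 (-0.96) in HL. It was also missed at a pseudocount of 1 in both comparisons (-0.64 each) and after rescaling to TPM in H (-0.95). Exons of Parp14 overlap those of Gm49730 on the same strand in GENCODE M21, so reads there cannot be told apart. Parp9 was at 3.94, 4.01 and 4.27 FPKM in HL, 2.86, 3.26 and 2.95 FPKM in H, and 5.88, 5.63 and 5.80 FPKM in NC, with no overlap between any groups. Its exons overlap those of Dtx3l on the opposite strand in GENCODE M21. HL stood between the other groups, with log2 fold changes of 0.42 against H and -0.49 against NC (limma adjusted p = 0.0052 and 0.00215), and H was at -0.91 against NC (limma adjusted p = 3.05e-05).

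Ifit2 had the same order of groups. It encodes an RNA-binding protein of the IFIT family and was at 10.3, 9.77 and 11.03 FPKM in HL, 7.32, 9.20 and 8.20 FPKM in H, and 14.3, 14.0 and 14.2 FPKM in NC. No groups overlapped, and the log2 fold changes were 0.33 in HL against H, -0.78 in H against NC and -0.45 in HL against NC (limma adjusted p = 0.0144, 6.98e-05 and 0.00309). After rescaling to TPM the difference between HL and H was 0.24 and did not pass. The relatives Ifit1 and Ifit3 were at 1.27 to 3.41 FPKM over all libraries, and for both H replicate 2 was the highest H library. The Ifit, Oas1 and Gbp genes have close paralogs that may share reads, so their single values are uncertain. Ifit3 had a log2 fold change of -0.71 in H against NC (limma adjusted p = 0.0263), which after rescaling to TPM was -0.53 and did not pass, and Ifit1 of -0.58 (limma adjusted p = 0.0886).

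Not all induced genes were lower. Isg20, a nuclease of single-stranded RNA, was at 14.2, 15.8 and 13.4 FPKM in HL, 12.0, 15.9 and 14.1 FPKM in H, and 9.65, 8.94 and 8.44 FPKM in NC. Both treated groups were above NC without overlap, with log2 fold changes of 0.62 in H and 0.68 in HL (limma adjusted p = 0.000957 and 0.000964). Ifi35, which encodes a leucine zipper protein induced by interferon, was at 29.7, 28.2 and 30.5 FPKM in HL, 21.5, 24.0 and 22.3 FPKM in H, and 20.7, 19.4 and 19.4 FPKM in NC. The groups did not overlap and HL was the highest, with log2 fold changes of 0.38 against H and 0.57 against NC (limma adjusted p = 0.00117 and 0.000135).

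The 4 genes under the filter were Mx1, Mx2, Rsad2 and Usp18. Mx1 and Mx2, dynamin-like GTPases that block viruses, were at 0.147 to 0.831 FPKM in HL and H together and at 0 to 0.627 FPKM in NC. All treated libraries of Mx1 lay above its NC libraries, with means of 0.193 FPKM in HL, 0.306 in H and 0.0717 in NC. Without the filter Mx1 was not called against NC (limma adjusted p = 0.0734 in H and 0.251 in HL). For Mx2 all groups overlapped. Rsad2, the gene of viperin, was at 0.340, 0.251 and 0.323 FPKM in HL, 0.1003, 0.163 and 0.0868 FPKM in H, and 0.0946, 0.203 and 0.189 FPKM in NC, and HL lay above the others. Usp18, the gene of the protease that removes ISG15 from proteins, was at 0.632, 0.124 and 0.306 FPKM in HL, 0.401, 0.852 and 0.564 FPKM in H, and 0.948, 1.85 and 1.21 FPKM in NC. All treated libraries were below NC for Usp18, and without the filter its log2 fold change was -1.78 in HL against NC (limma adjusted p = 0.0246) and -1.03 in H against NC (limma adjusted p = 0.131). Such low values rest on few fragments, so these genes carry the least information in the set.

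**Figure D2:**
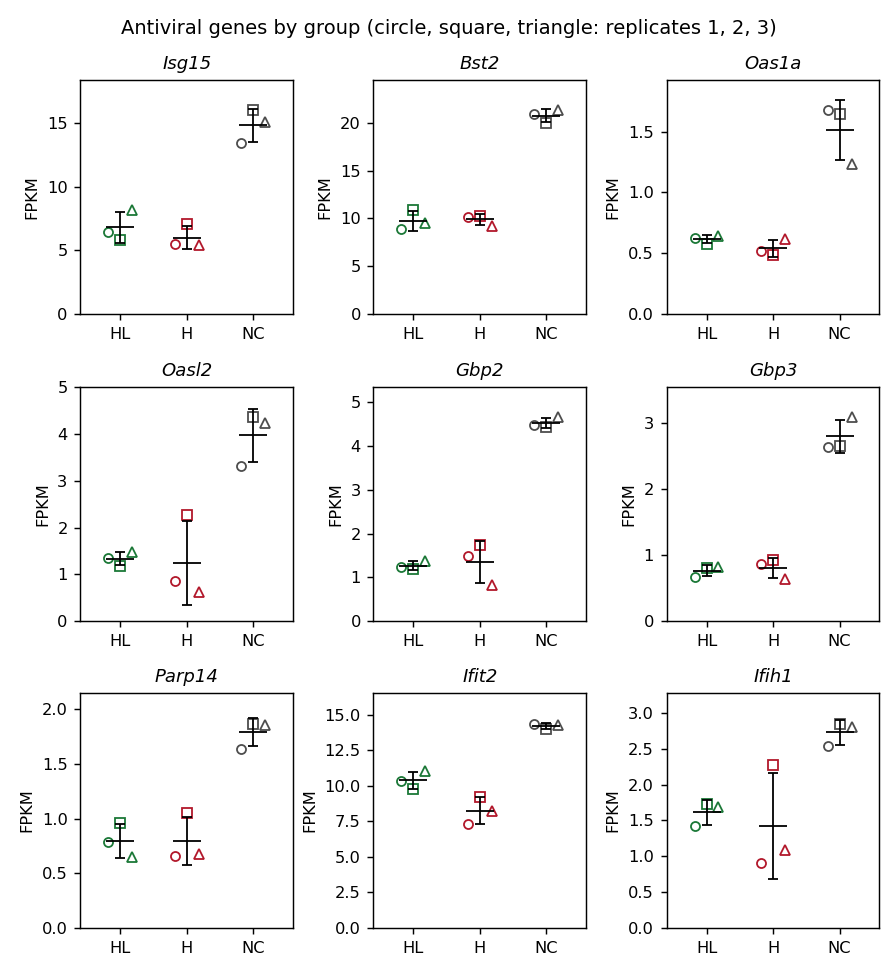
FPKM (y axis, from 0) of 9 antiviral genes in the HL, H and NC groups, with 1 point per library and a black bar for the mean ± SD (n = 3). The 7 genes called lower and Ifit2 and Ifih1 are shown, and in each panel the treated libraries lie below the NC libraries.

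Letters of the ISRE stand close to the start of 5 of the genes that fell. The motif, GAAA followed by any 2 bases and GAAA again, was searched on both strands of the 300 bases around each RefSeq gene start, from 250 bases before it to 50 after it (build GRCm38.p6). Of the 35 genes, 27 had an entry and 13 of these (48.1%) held the motif, against 3.99% of all 27025 genes with an entry. The set was chosen as interferon-stimulated genes, so a share above that of all genes follows at least in part from this choice. The motif is a description of letters and not a measured binding site, and its part in the fall was not tested. The 13 included Isg15, Oas1a, Gbp2, Gbp3 and Bst2 but not Oasl2 among the genes called lower, and Parp14 had no entry. B2m, Ddx58, Eif2ak2, Ifih1, Ifit1, Ifit3 and Stat2, which were tested and not called in H against NC, held it as well. So did Rsad2, which was under the filter and not tested. By adjusted p alone Ddx58, Eif2ak2, Ifih1 and Ifit3 were lower in H against NC, short of the fold threshold. The gamma-activated site TTCNNNGAA, the letters bound by STAT dimers after interferon gamma, was in 9 of the 27 (33.3%) and in 9.55% of all genes. The sequences of 60 bases that hold the ISRE of the 5 lower genes are given 5′ to 3′ along each gene, with the ISRE matches in capitals. In Isg15, Oas1a, Gbp3 and Bst2 several matches overlap and run together, while Gbp2 holds 1 match.
Isg15 (chr4:156200856-156200915, minus strand): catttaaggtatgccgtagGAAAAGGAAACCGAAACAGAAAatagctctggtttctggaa
Oas1a (chr5:120907526-120907585, minus strand): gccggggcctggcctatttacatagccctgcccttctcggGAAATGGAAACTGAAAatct
Gbp2 (chr3:142620579-142620638, plus strand): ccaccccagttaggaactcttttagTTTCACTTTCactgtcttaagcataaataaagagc
Gbp3 (chr3:142559977-142560036, plus strand): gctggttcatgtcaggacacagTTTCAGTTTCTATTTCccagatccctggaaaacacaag
Bst2 (chr8:71537565-71537624, minus strand): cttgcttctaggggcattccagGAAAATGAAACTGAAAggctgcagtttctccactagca

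In the MHC class I pathway, 2 of 7 genes rose in H against NC and none fell, against 10.3% and 5.75% of all genes. By adjusted p alone 5 of the 7 were higher and none lower, against 27.1% and 33% of all genes. Outside the set, 15 genes of the immunoproteasome and of class I loading were tested, and in H against NC 1 was called higher and 1 lower. By adjusted p alone 3 of the 15 were higher and 8 lower, with a median log2 fold change of -0.25. The median log2 fold change of the 7 genes was 0.45 in H against NC and 0.41 in HL against NC. Nlrc5 encodes the transactivator of class I genes. It was at 5.24, 5.07 and 6.71 FPKM in HL, 3.76, 3.59 and 5.15 FPKM in H, and 1.09, 1.42 and 2.11 FPKM in NC. All treated libraries were above NC, HL and H overlapped, and replicate 3 was the highest library in each group. The log2 fold change was 1.41 in H against NC (standard error 0.24, limma adjusted p = 0.000693) and 1.85 in HL against NC (standard error 0.24, limma adjusted p = 0.000258). Under the alternatives tried these values ranged from 1.03 to 1.64 and from 1.40 to 2.09. A gene on the opposite strand overlaps exons of Nlrc5 in GENCODE M21, and the sources used here do not say whether strand was used in counting.

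Tapbp encodes tapasin, which holds empty class I molecules at the peptide transporter. It was at 74.9, 72.2 and 71.6 FPKM in HL, 113.5, 97.0 and 90.5 FPKM in H, and 46.8, 45.3 and 43.9 FPKM in NC. The 3 groups did not overlap and H was the highest, with a log2 fold change of 1.14 against NC (standard error 0.08, limma adjusted p = 2.76e-06). HL was at -0.46 against H and at 0.68 against NC (limma adjusted p = 0.00136 and 0.000143), each short of the fold threshold. Exons of Tapbp overlap those of Zbtb22 on the same strand in GENCODE M21, so reads there cannot be told apart.

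Of the genes of the class I molecule itself, none was called. H2-K1, a class I heavy chain, was at 172.7, 169.2 and 182.2 FPKM in HL, 208.3, 210.2 and 193.5 FPKM in H, and 150.0, 144.6 and 144.7 FPKM in NC. The groups did not overlap, with log2 fold changes of 0.48 in H against NC and -0.22 in HL against H (limma adjusted p = 3.89e-05 and 0.00578). H2-D1, another heavy chain, was at 165.0, 162.0 and 173.8 FPKM in HL, 168.7, 175.9 and 159.6 FPKM in H, and 127.9, 120.3 and 127.7 FPKM in NC. Here HL and H overlapped and both were above NC, by log2 fold changes of 0.42 in H and 0.41 in HL (limma adjusted p = 0.000121 and 0.000284). The heavy chain genes have many close relatives and differ between mouse strains, and C2C12 cells come from C3H mice while the reference genome is that of C57BL/6J, so these levels are uncertain.

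B2m encodes beta-2 microglobulin, the light chain shared by all class I molecules, and had the highest level of the set. It was at 786, 746 and 766 FPKM in HL, 539, 667 and 584 FPKM in H, and 524, 551 and 540.0 FPKM in NC. HL was above both other groups without overlap, with log2 fold changes of 0.37 against H and 0.51 against NC (limma adjusted p = 0.00262 and 0.000424), while H and NC overlapped. After rescaling to TPM, B2m was at 0.34 in H against NC and passed the adjusted p. Tap1 and Tap2 encode the transporter that brings peptides into the endoplasmic reticulum. Tap2 was at 7.91, 7.27 and 8.33 FPKM in HL, 7.60, 10.9 and 7.86 FPKM in H, and 8.50, 8.37 and 8.68 FPKM in NC, and no comparison passed the adjusted p. Tap1 was at 2.26 ± 0.0898 FPKM in HL, 3.12 ± 0.745 in H and 2.22 ± 0.153 in NC (SD, n = 3 each), with a log2 fold change of 0.45 in H against NC (limma adjusted p = 0.0444), and after rescaling to TPM the difference of -0.52 between HL and H passed as well. In both transporter genes H replicate 2 was the highest of the 9 libraries.

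**Figure D3:**
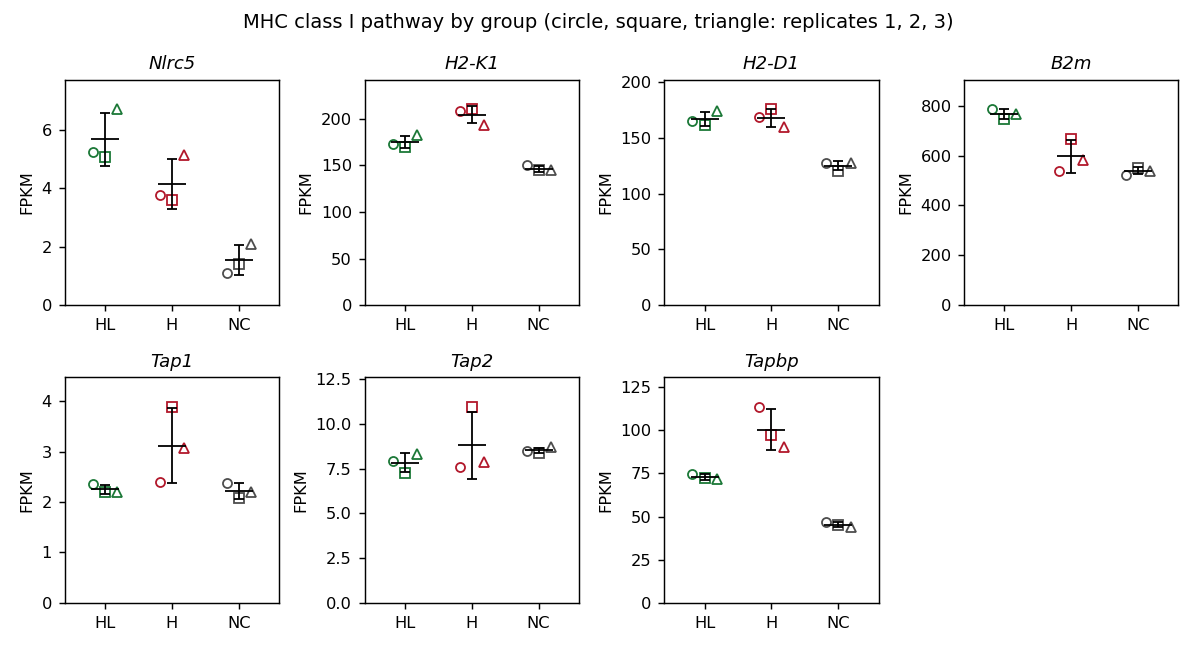
FPKM (y axis, from 0) of the 7 genes of the MHC class I pathway in the HL, H and NC groups, with 1 point per library and a black bar for the mean ± SD (n = 3). Nlrc5 and Tapbp are higher in all HL and H libraries than in NC, and B2m is higher in HL than in both other groups.

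The promoters of the heavy chains hold a further element. The class I kappa B element was searched only as GGGGA followed directly by TTCCC, and looser spellings, which other genes may hold, were not searched. In this exact form it was in H2-K1 and H2-D1 alone of the 27 genes with an entry, and in 0.126% of all genes. Beside it both hold a shorter spelling of the interferon element, GAANNGAAA, which was in 7 of the 27 genes (25.9%) and in 8.68% of all genes, and neither spelling contains the other. B2m holds the longer spelling. The windows of 60 bases are given 5′ to 3′. Capitals mark both elements in H2-K1 and H2-D1 and the longer spelling alone in B2m.
H2-K1 (chr17:34000414-34000473, minus strand): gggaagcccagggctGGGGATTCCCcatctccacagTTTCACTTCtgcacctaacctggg
H2-D1 (chr17:35262908-35262967, plus strand): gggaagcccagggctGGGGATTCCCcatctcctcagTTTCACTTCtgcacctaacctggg
B2m (chr2:122147523-122147582, plus strand): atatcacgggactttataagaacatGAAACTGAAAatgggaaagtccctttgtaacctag

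**Figure D4:**
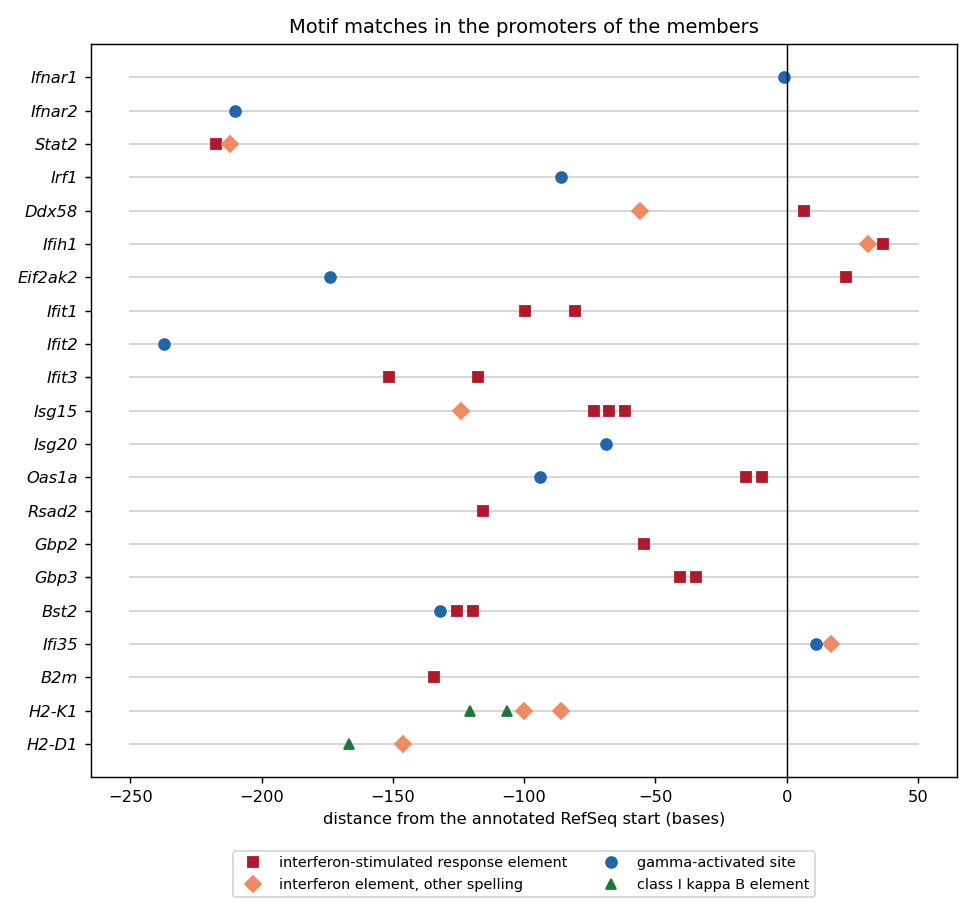
Positions of the motif matches (x axis, bases from the RefSeq start, negative before it) in the promoters of the genes of the set that hold any, with 1 row per gene. The ISRE matches of the 5 lower genes lie before the start, and H2-K1 shows each of its matches at 2 places because it has 2 annotated starts.

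The order of replicates within the H group was unlike that of other genes. H replicate 2 was the highest H library for 25 of the 31 tested genes of the set (80.6%), against 32.7% of all tested genes. In HL the most frequent highest library was replicate 3 (51.6%, against 34.4% of all genes), and in NC it was replicate 1 (48.4%, against 32.1%). Without H replicate 2, 8 genes were called lower and 2 higher in H against NC, with Ifih1 added. The share of all genes called in that fit is not given. The median log2 fold change was then -0.42 over the set and -0.06 over all 13253 genes tested. Depth of H replicate 2 was about 17100000 fragments, against 20300000 fragments in both other H libraries, and its part in this order was not tested.

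Genes of the same pathway outside the set were also called in both directions. Of 109 such genes listed by role, 77 were tested, and 8 were called lower (10.4%) and 3 higher (3.9%) in H against NC, against 5.75% and 10.3% of all genes. Their median log2 fold change was -0.19, against -0.04 for all genes. The 6 lowest were Gbp7 (log2 fold change -2.38), Iigp1 (-2.06), Ifi27l2a (-1.89), Zbp1 (-1.77), Trim30a (-1.21) and Erap1 (-1.20). Gbp7 is a guanylate-binding protein that passed the filter through NC alone, Iigp1 is a GTPase of the IRG family, Zbp1 senses nucleic acid in the Z form, and Erap1 trims peptides for class I. Ifi27l2a was at 7.18 ± 1.52 FPKM in HL, 5.74 ± 1.46 in H and 21.1 ± 1.80 in NC (SD, n = 3 each). The 3 that rose were H2-T23 (1.39), a nonclassical class I gene, Ifitm1 (1.32), a membrane protein that hinders virus entry, and Socs1 (1.11), an inhibitor of JAK kinases. Socs1 was at 3.36 ± 0.407 FPKM in HL, 3.50 ± 0.432 in H and 1.57 ± 0.264 in NC.

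In HL against H, 1 of these 77 genes was called lower and none higher, against 5.83% and 3.55% of all genes. It was the nonclassical class I gene H2-M3, at 5.34 ± 0.503 FPKM in HL and 12.7 ± 1.10 in H (SD, n = 3 each; log2 fold change -1.24, limma adjusted p = 1.9e-05). Without H replicate 2, 2 were lower and 1 was higher in HL against H, with no share of all genes given for that fit. In HL against NC, 8 were lower and 3 higher, against 2.41% and 6.3% of all genes. Besides Gbp7, Iigp1, Zbp1 and Ifi27l2a, the 6 lowest were Cgas, the sensor of DNA in the cytosol (log2 fold change -1.53), and the chemokine Ccl5 (-1.33). The higher genes were the chemokine Cxcl10 (1.14), Socs1 (1.05) and Ifitm1 (1.05).

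**Figure D5:**
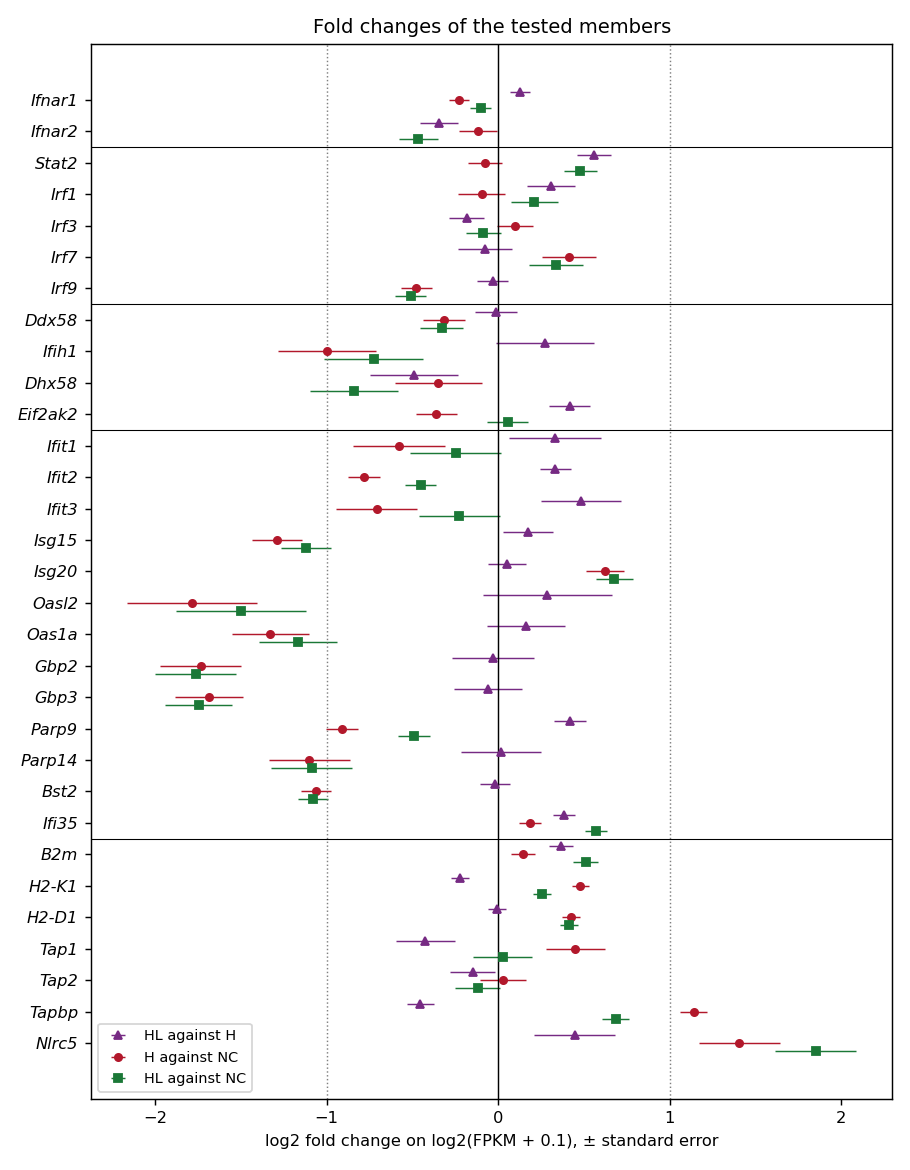
Log2 fold changes on log2(FPKM + 0.1) (x axis) with standard errors of the 31 tested genes (rows, in the order of roles) for HL against H (triangles), H against NC (circles) and HL against NC (squares), where dotted lines mark the fold threshold. For the 7 genes called lower, the circles and squares lie together below -1 and the triangles near 0.

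White blood cells express many of these genes, and their markers were measured in the same libraries. The summed FPKM of 19 such markers was 52.5 to 54.1 in HL, 174 to 254 in H and 33.9 to 36.4 in NC, and with Csf1r, a receptor for CSF1, left out it was 52.2 to 53.8 in HL, 82.9 to 104 in H and 33.6 to 35.7 in NC. Of the 19, 4 passed the filter and all 4 were called higher in H against NC, against 10.3% of all genes. These were Csf1r (log2 fold change 7.85), which passed through H libraries alone, Coro1a (1.88), Cd68 (1.85) and Cd14 (1.35). Coro1a overlapped between the groups, at 4.93, 2.83 and 1.11 FPKM in H and 0.626, 0.243 and 1.34 FPKM in NC (standard error 0.72, limma adjusted p = 0.046). Cd68 was also called higher in HL against NC (1.98), and Csf1r and Cd14 were called lower in HL against H (-8.40 and -1.20). Of the other 15, Tyrobp, C1qa, C1qb and C1qc were at 0 in all 9 libraries. Ptprc, which defines white blood cells, was at 0 to 0.0219 FPKM. The summed 6 lymphocyte markers were at most 0.307 FPKM in any library. Their part in the results was not tested either. In such bulk samples fewer cells of a type and less RNA per cell cannot be told apart.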

How the data were processed

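Libraries of mRNA from C2C12 cells (3 groups of 3 samples) were sequenced on an Illumina HiSeq instrument. The authors trimmed reads with fastp, aligned them with HISAT2 (version 2.1.0) and computed the deposited FPKM values with StringTie (version 1.3.3b). The labels name the mouse build mm39, the methods name another genome, and the name of the deposited table points to another quantifier, so only gene identifiers were used. FPKM hold no counts, so no count test was run. Identifiers were matched to symbols for 51482 of 54307 genes.

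Values were tested as log2(FPKM + 0.1) with limma (version 3.58.1, R 4.3.3), using its trend and robust settings. The 9 libraries entered a joint model, which left 6 residual degrees of freedom. The test covered the 13674 genes that reached 1 FPKM in 3 or more libraries, and Benjamini-Hochberg adjustment ran over them. Fold changes on this scale understate those of low genes. The fit was tested on simulated data. Python 3.11.15 was used for tables and plots, with pandas 2.3.3 and matplotlib 3.10.9. Depth was estimated from genes with 1 annotated transcript in GENCODE M21. Promoters came from RefSeq (GRCm38.p6) and were not joined to coordinates of another build.

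Values in every library are given for the genes called in any comparison and for up to 4 others with the highest mean in each role, and other genes of the pathway are named where called, up to 6 per comparison and direction. The genes, lists, tests and alternatives were chosen with earlier results of these data known. Alternatives changed the pseudocount (1 or 0.01), the filter (none, a mean FPKM of 5, or a mean of 1, which was added after seeing the data), the scale (TPM, or centring on the median), the model (array weights, no robust setting, separate fits for each pair of groups, a replicate block), the rule (adjusted p without a fold threshold), and the motif's spelling, besides leaving out each library.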

Additional observations from a re-analysis of the deposited data

How the results depend on the processing

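No called gene of the set changed direction under any alternative. Over 93 fold changes and 1797 alternative values, 10 calls missed the fold threshold and 5 values passed it, in Parp14, Bst2, Oas1a, Ifih1 and Dhx58. In 30 values the sign changed with no adjusted p under 0.05 either way, and the log2 fold change with the settings reported was at most 0.29 in size in all of them. A pseudocount of 1 left 4 genes called lower in H against NC in place of 7. A filter on a mean FPKM of 5 leaves fewer genes to test and gave 1 higher and 2 lower in H against NC and 0 higher and 2 lower in HL against NC, with median log2 fold changes of -0.088 and -0.016. Over all 9849 genes tested under this filter the medians were -0.111 and -0.083, so those of the set were not below them. By adjusted p alone 8 genes of the set were higher and 15 lower in H against NC (all genes 27.1% and 33%), 6 and 3 in HL against H (all genes 26.7% and 21.7%), and 8 and 12 in HL against NC (all genes 21.6% and 27.2%). Rescaling to TPM moved the median of all genes in H against NC from -0.04 to 0.15 and that of the set to -0.13, with 5 genes lower, and turned the median of the set in HL against H to -0.04. Leaving out 1 library gave 5 to 8 lower and 2 higher in H against NC, none called in HL against H, and 5 to 8 lower and 1 higher in HL against NC, with medians from -0.42 to -0.15, from -0.01 to 0.15 and from -0.23 to -0.11. A median moved by over 1.5 times in H against NC without H replicate 1 (-0.20) or NC replicate 1 (-0.15), in HL against NC without HL replicate 2 (-0.13) or NC replicate 1, 2 or 3 (-0.13, -0.13 and -0.11), and in HL against H without HL replicate 2 or 3 (0.02 and 0.10) or H replicate 1, 2 or 3 (0.02, 0.15 and -0.01). Without any 1 NC library, Oas1a and Gbp3 no longer passed the filter and were not tested. Of 52 fold changes of the set past an adjusted p of 0.05, 11 did not pass it under at least 1 alternative, and of the 41 others 15 passed it under at least 1. For the other genes of the pathway, testing with no filter, which takes in more of the 109 than the 77, gave 13 lower and 5 higher in H against NC and 13 lower in HL against NC, a pseudocount of 1 gave 5 lower in H against NC and 1 higher in HL against NC, and the filter on a mean of 5 gave 2 and 3 lower. Without H replicate 3, 5 of these other genes were higher in H against NC. With no filter 32012 genes were tested in place of 13674. Shares of all genes called are given only for the settings reported, adjusted p alone and the filter on a mean of 1. Counts under the other alternatives therefore have no background beside them. The replicate block changed no count of the set (7 lower and 2 higher in H against NC). Same-numbered libraries had correlations of their deviations from -0.037 to 0.091. Between H and NC these were all positive (0.057, 0.091 and 0.046), and libraries with unlike numbers ran from -0.071 to 0.011. The labels do not say that the numbers mark pairs, and they were not taken as such.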

Other observations

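Of 8 interferon genes none passed the filter. Ifna1, Ifna2, Ifna4, Ifnl2 and Ifnl3 were listed at 0 in all 9 libraries, and Ifnb1, the gene of interferon beta, was at 0 to 0.119 FPKM in HL, 0 to 0.183 in H and 0 in NC. Ifne, the gene of interferon epsilon, was at 0.365 to 0.465 FPKM in HL, 0.112 to 0.527 in H and 0.713 to 1.09 in NC, with all NC libraries above all others. Ifng, the gene of interferon gamma, was at 0.343 to 0.428 FPKM in HL, 0.0466 to 0.328 in H and 0.0506 to 0.152 in NC. At this depth the values of Ifnb1, Ifne and Ifng rest on few fragments. Members of the Ifna family and of the other multigene families here have close relatives that may share reads.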
